A study of Mus musculus with 24 samples.

Results

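Semaphorins, ephrins, Slits and netrins are cues that cells read through plexin and neuropilin, Eph, Robo, and Dcc, neogenin and Unc5 receptors. The genes described here are all rows of the deposited bead-array table whose symbol names one of these ligands or receptors, which matched 62 of 17951 genes. Of these, 43 passed a detection p under 0.01 on at least 3 of the 24 arrays and were tested, and the other 19 did not. The detection p of a gene compares its signal with the negative-control beads of the same array. Of the 43 genes, 21 were detected in all 24 arrays, 12 in 12 to 23 arrays and 10 in 3 to 11 arrays.

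These molecules were named for steering growing axons, and they also position vessels, epithelia and migrating mesenchyme. Most act over short range: a cue on or near one cell makes the neighbouring cell that carries the receptor withdraw or hold on through changes in its actin skeleton. In the developing kidney Slit2 and Robo2 restrict where the ureteric bud grows out, class 3 semaphorins act on endothelial cells, podocytes and ureteric branching, and ephrin-B2 with its EphB receptors takes part in assembling glomerular capillaries.

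The study removed Wt1, a zinc-finger transcription factor of the nephron lineage, at successive steps of nephron formation and measured total RNA of whole E18.5 kidneys on single-colour arrays, with 3 embryos in each of 8 groups. Nes-Cre Wt1 co/co kidneys carry a Nes-Cre transgene and 2 floxed Wt1 alleles, and their controls are Wt1 co/co kidneys without Cre. Wnt4+/CreGFP Wt1 co/co kidneys are set against Wnt4+/CreGFP kidneys and Pax8+/Cre Wt1 co/co kidneys against Pax8+/Cre kidneys. In these sets the mutants and the controls alike have 1 allele of the driver gene replaced by the Cre. The labels give the Wnt4+/CreGFP and Pax8+/Cre controls as wild type for Wt1, so they lack the floxed alleles. The Nes-Cre mutant thus differs from its control by the Cre, and the other mutants differ from theirs by floxed Wt1. Nes-Cre kidneys with intact Wt1 are set against wild-type kidneys, which carry neither Cre nor floxed Wt1. The labels give the strain as C57BL/6, whereas the methods describe a mixed C57BL/6/129Ola background. The Nes-Cre transgene acts in the nephron progenitors but not in all of them, and the study describes nephrons that escape it. RNA came from the whole organ, so that fewer cells of a type and less RNA per cell cannot be told apart in any value given here. The 3 groups in which Cre meets floxed Wt1 are called Nes-Cre mutants, Wnt4+/CreGFP mutants and Pax8+/Cre mutants by their driver, and Wt1 itself was not analysed here.

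The arrays detected between 7458 and 9681 genes each, and between 25 and 41 of the guidance genes. The 6 Nes-Cre and wild-type arrays had a higher background (152 to 182 intensity units) than the other 18 arrays (48.1 to 70.0), so that levels are compared within a set of mutant and control arrays unless stated. Nes-Cre mutant replicate 1 stood apart. It correlated at r = 0.89 and r = 0.90 across genes with replicates 2 and 3, which correlated at r = 0.99 with each other. Smooth muscle markers averaged a log2 level of 13.6 in that replicate, 8.78 in replicate 2 and 9.49 in replicate 3, and cap mesenchyme markers averaged 5.79, 8.16 and 7.85 in the same order. The methods state that 1 Nes-Cre mutant sample failed quality control without saying which, so all 3 were kept and results are also given without replicate 1. Podocyte markers were low in every mutant. They averaged 6.06 to 7.02 in Nes-Cre mutant kidneys against 7.48 to 7.70 in Wt1 co/co kidneys, 6.43 to 6.58 in Wnt4+/CreGFP mutant kidneys against 7.83 to 7.97 in Wnt4+/CreGFP kidneys, and 6.53 to 6.62 in Pax8+/Cre mutant kidneys against 7.82 to 7.92 in Pax8+/Cre kidneys.

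The upstream 250 bases of 4 guidance genes are shown because the results turn on them: Sema3g, Sema4a and Plxna2 were called in at least 2 of the 3 mutant comparisons, and Sema5a had the lowest fitted change in Nes-Cre mutant kidneys. They are RefSeq sequences of build GRCm38.p6, read 5′ to 3′ on the strand of the gene and ending at the base before the most upstream start in that table. The Sema3g stretch is chr14:31217623-31217872 on the plus strand, that of Sema4a chr3:88461183-88461432 on the minus strand, that of Plxna2 chr1:194619579-194619828 on the plus strand and that of Sema5a chr15:32244563-32244812 on the plus strand. Capitals mark matches to 3 motifs linked with Wt1 or the related Egr1 factor, GCGTGGGNG, GCGGGGGCG and TCCTCCTCC, searched on both strands.
Sema3g: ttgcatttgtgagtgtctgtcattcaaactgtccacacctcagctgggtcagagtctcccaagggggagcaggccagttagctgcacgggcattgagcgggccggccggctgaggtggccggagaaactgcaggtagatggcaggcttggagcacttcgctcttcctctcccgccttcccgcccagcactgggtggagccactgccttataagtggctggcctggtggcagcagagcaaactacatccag
Sema4a: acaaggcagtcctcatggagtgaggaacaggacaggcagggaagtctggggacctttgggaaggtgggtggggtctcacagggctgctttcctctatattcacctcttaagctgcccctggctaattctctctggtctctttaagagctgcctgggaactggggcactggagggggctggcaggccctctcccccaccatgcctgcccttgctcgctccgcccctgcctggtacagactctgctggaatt
Plxna2: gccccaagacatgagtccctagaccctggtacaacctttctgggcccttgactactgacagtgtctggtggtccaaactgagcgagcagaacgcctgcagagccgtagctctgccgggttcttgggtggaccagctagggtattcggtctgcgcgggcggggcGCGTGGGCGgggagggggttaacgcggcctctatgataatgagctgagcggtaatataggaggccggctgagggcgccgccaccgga
Sema5a: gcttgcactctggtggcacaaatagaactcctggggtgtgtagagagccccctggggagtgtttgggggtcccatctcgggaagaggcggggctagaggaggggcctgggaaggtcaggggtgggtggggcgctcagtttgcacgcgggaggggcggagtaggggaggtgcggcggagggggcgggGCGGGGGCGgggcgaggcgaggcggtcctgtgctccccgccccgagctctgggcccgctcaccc
Plxna2 held 1 GCGTGGGNG match, Sema5a held 1 GCGGGGGCG match, and Sema3g and Sema4a held none, although 1 of the other 3 Sema4a starts in the table had a match upstream. Of the 39 tested guidance genes with a sequence, 3 (7.69%) held GCGTGGGNG, 4 (10.3%) held GCGGGGGCG and 2 (5.13%) held TCCTCCTCC, against 1.6%, 2.55% and 2.34% of all 27025 gene starts searched. The stretches of the guidance genes were also richer in G and C, with a median of 66.0% against 52.0%. A match is a run of letters and not a measured binding site.

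Sema3g and Sema4a were lower in all 3 mutants, and no other guidance gene was called in more than 2. The share of all genes called lower in all 3 was not counted, so this does not show a trait particular to guidance genes. The Nes-Cre calls of Sema3g and Sema4a were lost without mutant replicate 1 (limma adjusted p = 0.0868 and 0.0859). In Nes-Cre mutant kidneys 2 of the 43 genes rose (4.65%, against 11.7% of all 10371 genes tested) and 7 fell (16.3%, against 14.1%), so that the falls were close to the share of all genes and the rises below it. In Wnt4+/CreGFP mutant kidneys 7 rose (16.3%, against 7.04%) and 3 fell (6.98%, against 8.49%). In Pax8+/Cre mutant kidneys none rose (against 1.76%; 2 genes had a positive change at an unadjusted p under 0.05) and 2 fell (4.65%, against 3.02%). Between Nes-Cre and wild-type kidneys no guidance gene was called in either direction (against 0.0868% higher and 0.0771% lower; 1 gene each way at an unadjusted p under 0.05). Each call is an adjusted p under 0.05 from limma. With arrays scaled to their 75th percentile, which moved the median change of all genes to 0.14 in the Nes-Cre mutant and 0.15 in the Wnt4+/CreGFP mutant, 7 rose and 4 fell in the Nes-Cre mutant (against 21.6% and 10.7% of all genes) and 9 rose and 2 fell in the Wnt4+/CreGFP mutant (against 8.93% and 7.06%). With the authors' ratio values (medians of all genes −0.19, −0.13 and 0.13), 0 rose and 6 fell in the Nes-Cre mutant (against 2.46% and 22.3%), 2 rose and 3 fell in the Wnt4+/CreGFP mutant (against 1.06% and 12.4%), and 1 rose and 2 fell in the Pax8+/Cre mutant (against 2.93% and 2.72%). The 3 mutant comparisons share no array, and the same spread estimate serves all of them.

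The levels of the 43 genes as a group shifted little. Their median log2 change was −0.01 in Nes-Cre mutant kidneys, 0.16 in Wnt4+/CreGFP mutant kidneys and 0.06 in Pax8+/Cre mutant kidneys, and the medians of all genes tested were −0.00, 0.06 and 0.04. In Wnt4+/CreGFP mutant kidneys 32 of the 43 changes were positive, where the median of all genes was positive too. The share of positive changes among all genes was not counted. With the ratio values the median of the guidance genes in that mutant was −0.007, against −0.13 for all genes.

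**Figure D1:**
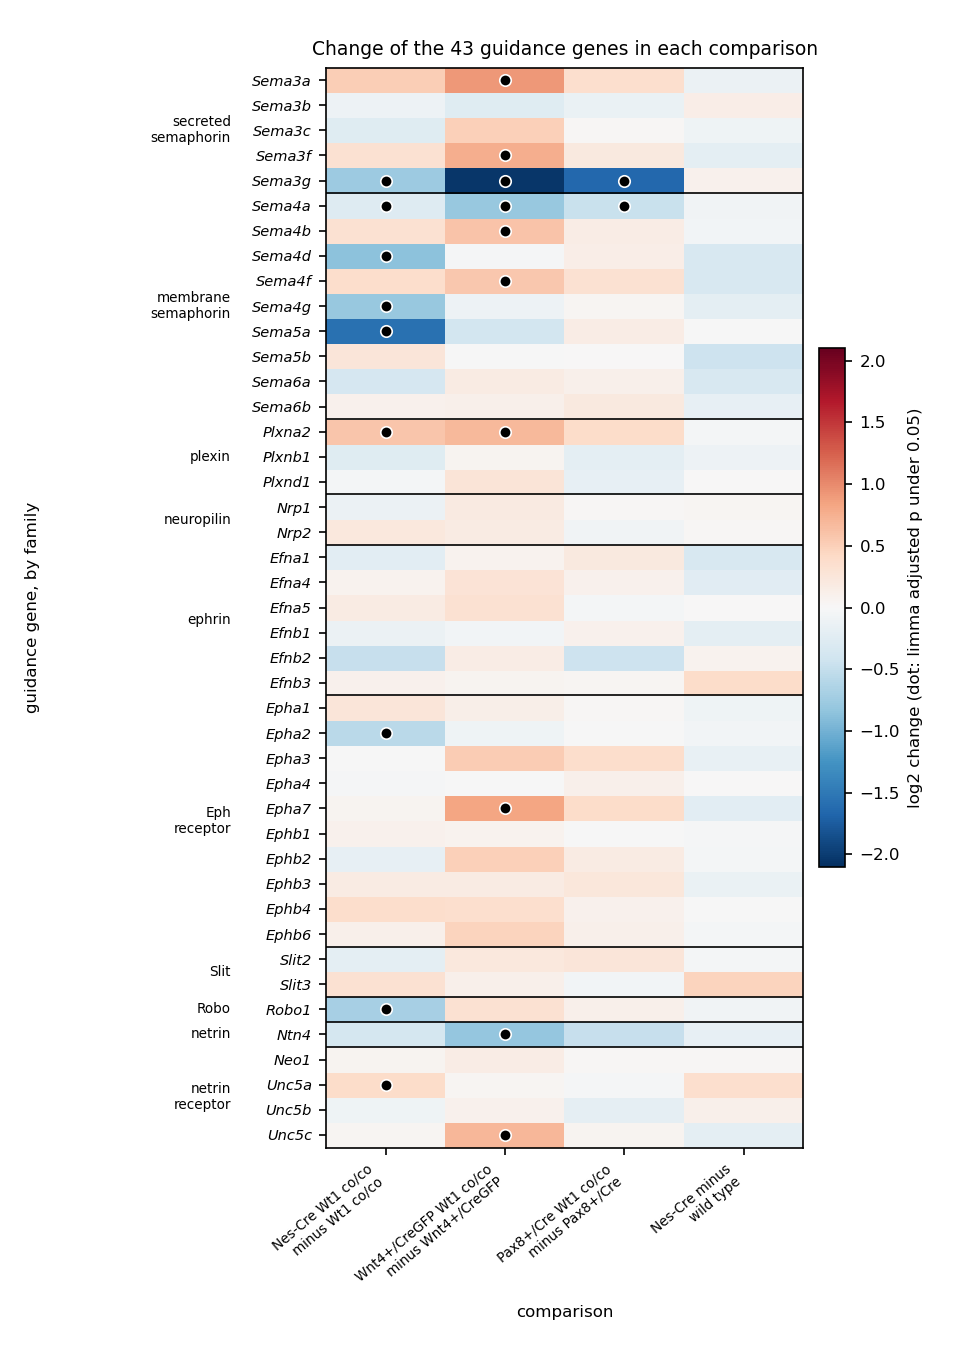
Log2 change of the 43 tested guidance genes (rows, by family) in the 3 mutant comparisons and between Nes-Cre and wild-type kidneys (columns). Colour gives the change, red for higher and blue for lower in the first-named group, and dots mark an adjusted p under 0.05 from limma. With all arrays in the fit, Sema3g and Sema4a carry a dot in all 3 mutant columns, and no gene carries one in the Nes-Cre column.

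Among the secreted semaphorins, Sema3g fell in all 3 mutants. It encodes a class 3 semaphorin that has been found in podocytes and in arterial endothelium. Its log2 level was 4.89, 5.13 and 5.34 in the 3 Nes-Cre mutant arrays, against 5.98, 5.57 and 6.12 in the Wt1 co/co arrays. It was 4.50, 4.49 and 4.68 in Wnt4+/CreGFP mutant arrays, against 6.12, 7.16 and 6.53 in the Wnt4+/CreGFP arrays. It was 5.15, 5.41 and 5.40 in Pax8+/Cre mutant arrays, against 7.05, 6.74 and 7.10 in the Pax8+/Cre arrays. In each set every mutant array lay below every control array. Nes-Cre kidneys, at 7.05, 6.05 and 5.91, overlapped wild-type kidneys, at 6.37, 6.25 and 6.12.

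The fall of Sema3g was 0.77 ± 0.25 on the log2 scale in Nes-Cre mutant kidneys (SE, n = 3 each; limma adjusted p = 0.0321), and in Pax8+/Cre mutant kidneys the change was −1.64 ± 0.25, or 3.12-fold lower (adjusted p = 0.000409). In Wnt4+/CreGFP mutant kidneys Sema3g was detected in none of the 3 arrays and in all 3 control arrays. Its level there was therefore at least 3.38-fold lower (adjusted p = 1.53e-05), a bound set by the lowest level at which any gene was detected on each mutant array. Sema3g was detected in 1 of 3 Nes-Cre mutant arrays and in all 3 Pax8+/Cre mutant arrays. Podocyte markers moved the same way: 5 of the 8 tested fell in the Nes-Cre, 4 in the Wnt4+/CreGFP and 3 in the Pax8+/Cre mutants. Leaving out Nes-Cre mutant replicate 1, 4 fell in each of the 3 mutants and 1, Tcf21, rose in the Nes-Cre mutant. Ptpro was detected in no mutant array of any of the 3, but in no wild-type array either. Of the 10 endothelial markers, 2 fell in Nes-Cre mutant kidneys and none was called in the other 2 mutants (without Nes-Cre mutant replicate 1, 1 fell in that mutant, 3 in Wnt4+/CreGFP mutants and 1 in Pax8+/Cre mutants). The part of these cells in the Sema3g values was not tested. Without Nes-Cre mutant replicate 1 the Nes-Cre change was −0.66 (adjusted p = 0.0868), and the call was also lost without Wt1 co/co replicate 1 (adjusted p = 0.0991), Wt1 co/co replicate 3 (0.105) or Nes-Cre mutant replicate 2 (0.0529). It was −0.27 with arrays scaled to their 75th percentile (adjusted p = 0.473) and −0.31 with the ratio values (0.0836).

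**Figure D2:**
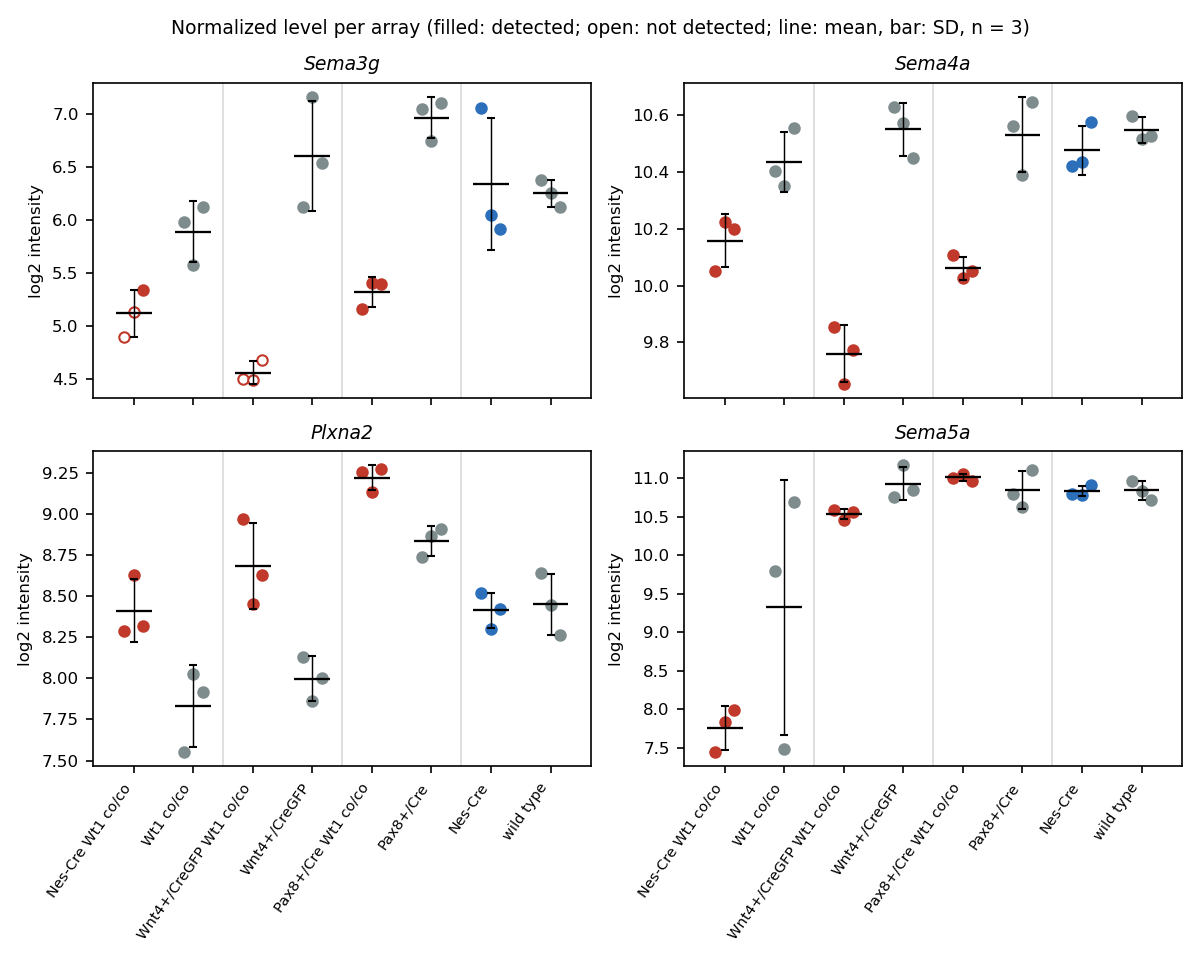
Normalized log2 intensity per array of Sema3g, Sema4a, Plxna2 and Sema5a in the 8 groups, mutants in red, Nes-Cre kidneys in blue and the other controls in grey, with the mean as a line and the SD as a bar (n = 3). Filled points were detected and open points were not. Sema3g is open in all 3 Wnt4+/CreGFP mutant arrays, and Sema5a lies near 8 in Nes-Cre mutant arrays and in 1 Wt1 co/co array.

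Sema3a and Sema3f rose in Wnt4+/CreGFP mutant kidneys. Sema3a binds neuropilin-1 together with A-type plexins and in the kidney acts on vessels, podocytes and ureteric branching. Its log2 level was 8.79, 8.30 and 8.83 in Wnt4+/CreGFP mutant arrays, against 7.54, 7.77 and 7.89 in the Wnt4+/CreGFP arrays, without overlap. The change was 0.90 ± 0.22 (SE, n = 3 each; limma adjusted p = 0.00786), and with the ratio values it was 0.46 and not called (adjusted p = 0.256). In Nes-Cre mutant kidneys Sema3a stood at 8.76, 8.06 and 7.90, against 7.71, 8.09 and 7.35 in Wt1 co/co kidneys, and the groups overlapped (0.52 ± 0.22, adjusted p = 0.0821). In Pax8+/Cre mutant kidneys it stood at 8.94, 8.40 and 8.32, against 8.24, 8.09 and 8.25 in Pax8+/Cre kidneys, all 3 above the controls (0.36 ± 0.22, adjusted p = 0.427).

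Sema3f, which signals mainly through neuropilin-2, had log2 levels of 10.57, 10.46 and 10.41 in Wnt4+/CreGFP mutant arrays, against 9.66, 9.79 and 9.71 in the Wnt4+/CreGFP arrays. The change was 0.76 ± 0.17 (SE, n = 3 each; limma adjusted p = 0.0039), larger than the spread within either group, and with the ratio values it was 0.40 and not called (adjusted p = 0.224). Markers of cap mesenchyme and stroma were higher beside both genes. Cap mesenchyme markers averaged 7.77 to 7.98 in Wnt4+/CreGFP mutant kidneys, against 7.20 to 7.30 in Wnt4+/CreGFP kidneys, with 1 of 8 called (5 without Nes-Cre mutant replicate 1), and stroma markers averaged 9.77 to 10.07, against 9.26 to 9.43, with 2 of 8 called (7 without that replicate). Their part in the Wnt4+/CreGFP rises, those of Epha7 and Unc5c included, was not tested. In Nes-Cre mutant arrays Sema3f stood at 9.41, 10.34 and 10.21, against 9.57, 9.81 and 9.62 in the Wt1 co/co arrays. Replicate 1 lay below the controls and replicates 2 and 3 above them: the change was 0.32 ± 0.17 with all arrays (adjusted p = 0.159) and 0.61 without replicate 1 (adjusted p = 0.000655). In Pax8+/Cre mutant arrays it stood at 9.89, 10.10 and 9.97, against 9.72, 9.81 and 9.81 in the Pax8+/Cre arrays (0.21 ± 0.17, adjusted p = 0.574). Sema3f was listed as not detected in 1 Nes-Cre and 2 wild-type arrays, although its level in those groups was 9.69 to 10.21.

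The other secreted semaphorins gave no call. Sema3c, a cue for endothelial and neural crest cells that binds both neuropilins, was detected in 3 of 24 arrays. It stood at 4.94, 5.13 and 5.64 in Wnt4+/CreGFP mutant arrays, of which 1 was detected, and at 4.66, 4.70 and 4.84 in the Wnt4+/CreGFP arrays, where none was. The log2 change was 0.50 (limma adjusted p = 0.081), and no fold is given, since most of these arrays did not detect it. Sema3b changed by −0.25 to −0.11 in the 3 mutant comparisons, and Sema3e was not detected on any array.

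Of the 12 semaphorins held in the cell membrane, 9 were tested, and 4 of them fell in Nes-Cre mutant kidneys, where 14.1% of all genes fell. Sema4a, a membrane semaphorin known from immune cells and the retina, was also lower in the other mutants. Its log2 level was 10.05, 10.22 and 10.20 in Nes-Cre mutant arrays, against 10.40, 10.35 and 10.55 in the Wt1 co/co arrays. It was 9.85, 9.65 and 9.77 in Wnt4+/CreGFP mutant arrays, against 10.63, 10.57 and 10.45 in the Wnt4+/CreGFP arrays. It was 10.11, 10.03 and 10.05 in Pax8+/Cre mutant arrays, against 10.56, 10.39 and 10.64 in the Pax8+/Cre arrays. The groups did not overlap in any set, and Sema4a was detected in all 24 arrays.

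The log2 change of Sema4a was −0.28 ± 0.09 in Nes-Cre mutant kidneys (SE, n = 3 each; limma adjusted p = 0.0264), −0.79 ± 0.09 in Wnt4+/CreGFP mutant kidneys (adjusted p = 4.28e-06) and −0.47 ± 0.09 in Pax8+/Cre mutant kidneys (adjusted p = 0.00272; −0.26 and 0.373 with the ratio values). Between Nes-Cre and wild-type kidneys it was −0.07 ± 0.09 (adjusted p = 0.954). Without Nes-Cre mutant replicate 1 the Nes-Cre change was −0.22 (adjusted p = 0.0859), and the call was also lost without Wt1 co/co replicate 1 (0.0542) or replicate 3 (0.106). Proximal tubule markers fell with it, with 7 of 8 called in the Nes-Cre, 5 in the Wnt4+/CreGFP and 2 in the Pax8+/Cre mutants, and 7, 8 and 7 without Nes-Cre mutant replicate 1. Their median log2 changes were −2.06, −2.30 and −1.18, and in Pax8+/Cre mutant kidneys they averaged 7.85 to 7.93, against 9.06 to 9.30 in Pax8+/Cre kidneys. Their part in the Sema4a values was not tested.

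Sema4d and Sema4g, whose proteins signal through B-type plexins, fell in Nes-Cre mutant kidneys and were not called in the other mutants. Sema4g stood at 6.46, 6.69 and 6.80 in Nes-Cre mutant arrays, against 7.92, 7.29 and 7.12 in the Wt1 co/co arrays. The change of Sema4g was −0.79 ± 0.16 (SE, n = 3 each; limma adjusted p = 0.00166) and −0.70 without replicate 1 (adjusted p = 0.00569). Sema4d stood at 4.59, 5.40 and 5.77 in Nes-Cre mutant arrays, of which 2 were detected, against 6.47, 5.80 and 6.07 in the Wt1 co/co arrays, which all were. The change of Sema4d was −0.86 ± 0.22 (adjusted p = 0.00824), and −0.53 without mutant replicate 1 (adjusted p = 0.0345), whereas the call was lost without Wt1 co/co replicate 1 (−0.68, adjusted p = 0.0581) and with scaling to the 75th percentile (−0.41, adjusted p = 0.115). Against Nes-Cre kidneys, in another set of arrays, the change of Sema4d was −0.05 (adjusted p = 0.889). For both genes the mutant arrays lay below the controls. In Wnt4+/CreGFP and in Pax8+/Cre mutants Sema4g changed by −0.11 and 0.04 and Sema4d by −0.02 and 0.15, each within the spread of the arrays. Neither difference of effects was called between the Nes-Cre and the other mutants (adjusted p = 0.0622 to 0.145). Loop and distal tubule markers fell alongside, with 6 of 7 called in the Nes-Cre mutant and 2 in each of the others, and 6, 5 and 2 without Nes-Cre mutant replicate 1. Their median log2 changes were −1.04, −0.99 and −0.36, and their part was not tested.

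Sema5a, a membrane semaphorin with thrombospondin repeats that is singled out here after its values were seen, had log2 levels of 7.44, 7.84 and 7.98 in Nes-Cre mutant arrays, against 9.79, 7.48 and 10.69 in the Wt1 co/co arrays. One control array was thus as low as the mutants, and the groups overlapped. In the other 18 arrays, of each Cre driver or none and with or without Wt1, Sema5a lay between 10.46 and 11.17. The fitted change was −1.57 ± 0.46 (SE, n = 3 each; limma adjusted p = 0.0177), and it was −1.41 without mutant replicate 1 (adjusted p = 0.0449). Without Wt1 co/co replicate 2, the low control, it was −2.49 (adjusted p = 8.16e-07), without Wt1 co/co replicate 3 it was −0.88 (adjusted p = 0.104) and without Wt1 co/co replicate 1 it was −1.33 (adjusted p = 0.0861). Against Nes-Cre kidneys with intact Wt1, which lie in another set of arrays, it was −3.08 ± 0.46 (adjusted p = 6.7e-05). In Wnt4+/CreGFP and in Pax8+/Cre mutants it changed by −0.39 and 0.16 (adjusted p = 0.621 and 0.908).

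Sema4b rose in Wnt4+/CreGFP mutant kidneys, with levels of 10.38, 10.23 and 10.51 against 9.14, 10.23 and 9.93 in Wnt4+/CreGFP kidneys. The change was 0.61 ± 0.19 (SE, n = 3 each; limma adjusted p = 0.0323), but the lowest mutant and the highest control array lay side by side, and without Wnt4+/CreGFP replicate 1 the change was 0.29 (adjusted p = 0.185). The call was also lost without Wnt4+/CreGFP mutant replicate 1 (adjusted p = 0.0894) or replicate 3 (0.109). Sema4f, named after its values were seen, passed the test in the same mutant but was detected in none of the 6 arrays, with 5.29, 4.93 and 5.55 in the mutants and 4.84, 4.50 and 4.72 in the controls, so that no fold is given. Sema5b, Sema6a and Sema6b were not called in any mutant. Sema6c, Sema6d and Sema7a stayed under the detection minimum.

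Of 5 tested semaphorin receptors 1 was called, in the Nes-Cre and Wnt4+/CreGFP mutants, where 11.7% and 7.04% of all genes rose. Plxna2 encodes plexin-A2, a receptor for class 6 semaphorins and, with neuropilins, for class 3 semaphorins. It rose in Nes-Cre mutant kidneys to log2 levels of 8.29, 8.63 and 8.32, against 7.55, 8.03 and 7.91 in Wt1 co/co kidneys. It rose in Wnt4+/CreGFP mutant kidneys to 8.97, 8.45 and 8.63, against 8.13, 7.86 and 8.00 in Wnt4+/CreGFP kidneys. In Pax8+/Cre mutant kidneys it stood at 9.25, 9.14 and 9.27, against 8.73, 8.86 and 8.91 in Pax8+/Cre kidneys. Every mutant array lay above every control array of its set.

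The log2 change of Plxna2 was 0.58 ± 0.14 in Nes-Cre mutant kidneys (SE, n = 3 each; limma adjusted p = 0.00618), 0.69 ± 0.14 in Wnt4+/CreGFP mutant kidneys (adjusted p = 0.00255; 0.28 and 0.28 with the ratio values) and 0.39 ± 0.14 in Pax8+/Cre mutant kidneys (adjusted p = 0.143). Against Nes-Cre kidneys, at 8.52, 8.30 and 8.42 in another set of arrays, the Nes-Cre mutant change was −0.00 ± 0.14 (adjusted p = 0.993). Wild-type kidneys of that other set stood at 8.64, 8.45 and 8.26, so that the set and the control cannot be told apart there. When the Nes-Cre minus wild-type change was subtracted from the Nes-Cre mutant change, Plxna2 was still called higher. With the ratio values the Nes-Cre mutant change was 0.12 (adjusted p = 0.59). Stroma markers moved with it in part: 4 of 8 rose in the Nes-Cre, 2 in the Wnt4+/CreGFP and 1 in the Pax8+/Cre mutants, and 3, 7 and 1 without Nes-Cre mutant replicate 1, and their part in the Plxna2 values was not tested.

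Nrp1, the neuropilin that binds Sema3a and Vegfa, was detected in every array and was called in no mutant. It stood at 10.73, 11.74 and 11.72 in Nes-Cre mutant arrays, against 11.55, 11.60 and 11.38 in the Wt1 co/co arrays, so that only mutant replicate 1 lay apart. Its changes were −0.12 ± 0.18, 0.19 ± 0.18 and 0.02 ± 0.18 in the Nes-Cre mutant, the Wnt4+/CreGFP mutant and the Pax8+/Cre mutant (SE, n = 3 each; limma adjusted p = 0.671, 0.533 and 0.977). Nrp2 was detected in 4 of 24 arrays and was not called. Plxnb1, a receptor for Sema4d, and Plxnd1, a vascular receptor, changed by −0.25 to 0.27, and 5 further plexins were under the detection minimum.

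**Figure D3:**
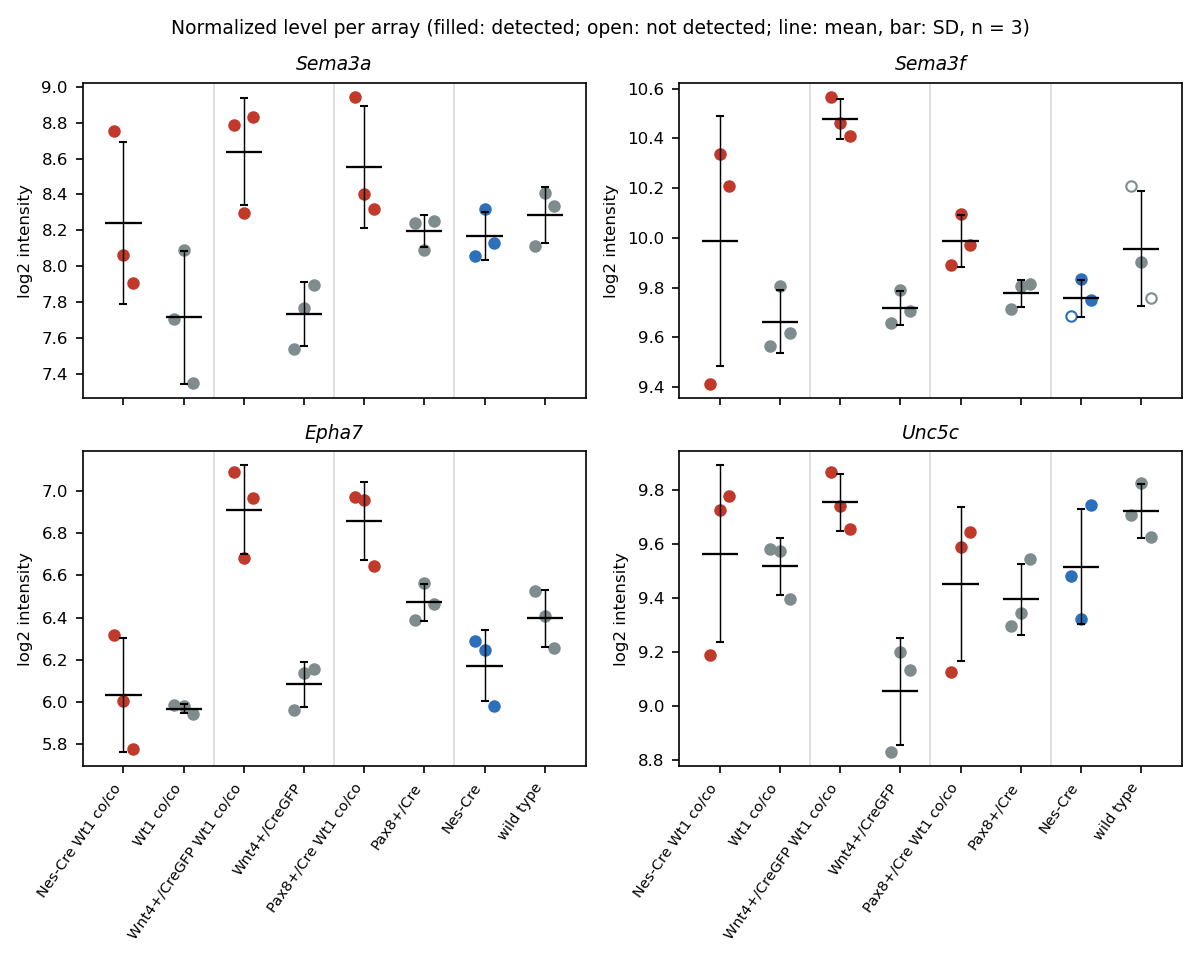
Normalized log2 intensity per array of Sema3a, Sema3f, Epha7 and Unc5c in the 8 groups, with colours, means and SD bars (n = 3) as in the plot of Sema3g and Sema4a. In all 4 panels the 3 Wnt4+/CreGFP mutant arrays lie above the 3 Wnt4+/CreGFP arrays.

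No ephrin was called in any mutant with all arrays in the fit. Of all genes tested, 11.7% rose and 14.1% fell in Nes-Cre mutants, 7.04% and 8.49% in Wnt4+/CreGFP mutants and 1.76% and 3.02% in Pax8+/Cre mutants. Of the 6 tested ligands, Efnb1 and Efnb2 are membrane-spanning and bind EphB receptors, and Efnb2 marks arterial endothelium. Efnb2 stood at 5.60, 5.45 and 5.76 in Nes-Cre mutant arrays, against 6.33, 6.10 and 5.83 in the Wt1 co/co arrays, and at 6.56, 6.21 and 6.16 in Pax8+/Cre mutant arrays, against 6.56, 6.98 and 6.70 in the Pax8+/Cre arrays. In both sets the mutants lay at or below the lowest control, with changes of −0.48 ± 0.25 and −0.44 ± 0.25 (SE, n = 3 each; limma adjusted p = 0.17 and 0.394). Efnb1 changed by −0.12, −0.06 and 0.09 (adjusted p = 0.69 to 0.886). Efna4, an ephrin held by a lipid anchor and named after its values were seen, stood at 7.59, 9.27 and 9.14 in Nes-Cre mutant arrays against 8.39, 8.59 and 8.80 in the Wt1 co/co arrays. Its change was 0.07 with all arrays (adjusted p = 0.876) and 0.61 without replicate 1 (adjusted p = 0.0049). Without that replicate Efna5 was also called, higher in the Wnt4+/CreGFP mutant by 0.32 (limma adjusted p = 0.0302).

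Of the 10 Eph receptors tested, 1 fell in Nes-Cre mutant kidneys (against 14.1% of all genes) and 1 rose in Wnt4+/CreGFP mutant kidneys (against 7.04%). Epha7, a receptor for A-type ephrins, had log2 levels of 7.09, 6.68 and 6.96 in Wnt4+/CreGFP mutant arrays, against 5.96, 6.14 and 6.15 in the Wnt4+/CreGFP arrays. All 3 mutants lay above all 3 controls, and the change was 0.83 ± 0.13 (SE, n = 3 each; limma adjusted p = 0.000301). It stood at 6.97, 6.96 and 6.64 in Pax8+/Cre mutant arrays, against 6.39, 6.56 and 6.47 in the Pax8+/Cre arrays (0.39 ± 0.13, adjusted p = 0.119), and at 6.32, 6.01 and 5.78 in Nes-Cre mutant arrays, against 5.98, 5.98 and 5.94 in the Wt1 co/co arrays (0.06 ± 0.13, adjusted p = 0.763). The Pax8+/Cre groups did not overlap and the Nes-Cre groups did, which describes the values and is not a test.

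Epha2, an epithelial receptor for ephrin-A1, fell in Nes-Cre mutant kidneys to 5.49, 6.05 and 5.58, against 6.13, 6.27 and 6.43 in Wt1 co/co kidneys. The change was −0.57 ± 0.19 (SE, n = 3 each; limma adjusted p = 0.0326), and it lost its call without Nes-Cre mutant replicate 1 (−0.46, adjusted p = 0.0999) or replicate 3 (0.0873) and without Wt1 co/co replicate 1 (0.0501), 2 (0.0705) or 3 (0.101). With scaling to the 75th percentile it was −0.25 (adjusted p = 0.25), and against Nes-Cre kidneys −0.14 (adjusted p = 0.591). Ephb2 stood at 8.65, 8.71 and 8.66 in Wnt4+/CreGFP mutant arrays against 8.21, 8.17 and 8.16 in the Wnt4+/CreGFP arrays, without overlap (0.49 ± 0.18, adjusted p = 0.0763). Ephb4, the receptor for ephrin-B2 on venous endothelium, stood at 7.45, 7.50 and 7.12 in the same mutants against 7.04, 6.89 and 7.09 in their controls (0.35 ± 0.19, adjusted p = 0.231). Epha4 was detected in 5 of 24 arrays and changed by −0.03 to 0.10. The remaining receptors of the family were called in no mutant.

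Of the Slit ligands, Slit2 was detected in all 24 arrays and gave no call. It stood at 9.55, 9.26 and 9.36 in Nes-Cre mutant arrays against 9.32, 9.95 and 9.52 in the Wt1 co/co arrays, and its changes were −0.21 ± 0.15, 0.22 ± 0.15 and 0.25 ± 0.15 in the Nes-Cre mutant, the Wnt4+/CreGFP mutant and the Pax8+/Cre mutant (SE, n = 3 each; limma adjusted p = 0.325, 0.345 and 0.42). Robo2, the Slit2 receptor with a known part in ureteric budding, was detected in 2 of 24 arrays and was not tested. Robo4, named after its values were seen, also stayed under the detection minimum, although its log2 level was 8.59 to 9.25. Robo1, another Slit receptor, stood at 8.52, 9.50 and 9.34 in Nes-Cre mutant arrays, against 9.75, 10.06 and 9.63 in the Wt1 co/co arrays. All mutants lay below all controls, replicate 1 farthest. The change was −0.70 ± 0.19 (adjusted p = 0.0118), −0.39 without mutant replicate 1 (adjusted p = 0.0494) and −0.57 without Wt1 co/co replicate 2 (adjusted p = 0.0613). In Wnt4+/CreGFP and in Pax8+/Cre mutants Robo1 changed by 0.32 ± 0.19 and 0.11 ± 0.19 (adjusted p = 0.274 and 0.846).

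Ntn4 encodes netrin-4, a basement membrane protein that binds laminins. It was detected in 5 of 24 arrays, all of them controls: 2 of 3 Wnt4+/CreGFP arrays and 3 of 3 Pax8+/Cre arrays, so that it entered the test only through groups in which it was high. It stood at 5.04, 4.85 and 4.82 in Wnt4+/CreGFP mutant arrays, against 5.38, 5.97 and 5.79 in the Wnt4+/CreGFP arrays, at least 1.74-fold lower (limma adjusted p = 0.0122). That bound takes the control array without detection at its own level. The log2 change was −0.81, but with scaling to the 75th percentile it was −0.33 and not called (adjusted p = 0.296), so that the bound holds for quantile-normalized levels only. Without Wnt4+/CreGFP replicate 2 it was −0.68 (adjusted p = 0.0661). It stood at 4.81, 4.63 and 4.81 in Pax8+/Cre mutant arrays, against 5.25, 5.11 and 5.36 in the Pax8+/Cre arrays, a log2 change of −0.49 that was not called (adjusted p = 0.218). In both sets the mutants lay below the controls.

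Among the netrin receptors, Unc5c, which mediates repulsion, rose in Wnt4+/CreGFP mutant kidneys. It stood at 9.86, 9.74 and 9.66 there, against 8.83, 9.20 and 9.13 in Wnt4+/CreGFP kidneys, a change of 0.70 ± 0.16 without overlap (SE, n = 3 each; limma adjusted p = 0.00552), and with the ratio values it was 0.31 and not called (adjusted p = 0.207). In the Nes-Cre and Pax8+/Cre mutants Unc5c changed by 0.05 and 0.06 (adjusted p = 0.862 and 0.907). Unc5a, a related receptor, rose in Nes-Cre mutant kidneys to 5.31, 5.12 and 5.22, against 4.90, 4.85 and 4.74 in Wt1 co/co kidneys (0.39 ± 0.11, adjusted p = 0.0163). It was detected in all 3 of these mutant arrays and in 1 of the 3 controls, and without Wt1 co/co replicate 3 the change was 0.35 (adjusted p = 0.0569). In Nes-Cre kidneys with intact Wt1, in another set of arrays, Unc5a stood at 5.58, 5.00 and 5.35, against 4.84, 5.05 and 4.96 in wild-type kidneys (0.36 ± 0.11, adjusted p = 0.255), and the Nes-Cre mutant change against them was −0.09 ± 0.11 (adjusted p = 0.535). Unc5b, the vascular member, and Neo1, the receptor neogenin, were detected in all 24 arrays and changed by −0.18 to 0.16.

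The effects in Nes-Cre mutants and in Wnt4+/CreGFP mutants differed in 3 of the 43 genes (6.98%, against 2.61% of all genes). The controls differ in kind: Wt1 co/co kidneys lack Cre, whereas Wnt4+/CreGFP and Pax8+/Cre kidneys lack floxed Wt1. In differences from the Nes-Cre mutant, the driver, the kind of control and the array set therefore cannot be told apart. The effect on Sema4a was smaller in the Nes-Cre mutant by 0.51 ± 0.12 on the log2 scale (SE; limma adjusted p = 0.0341). For Epha7 the Nes-Cre effect minus the Wnt4+/CreGFP effect was −0.76 ± 0.19 (adjusted p = 0.0374) and for Robo1 −1.02 ± 0.27 (adjusted p = 0.0483). All 3 lie near the threshold. With each array left out in turn, the call was lost in 18 fits for Robo1, 9 for Epha7 and 7 for Sema4a. Without Wt1 co/co replicate 1, Wnt4+/CreGFP replicate 2 or Wnt4+/CreGFP mutant replicate 3 none was called, and without Nes-Cre mutant replicate 1 there were 4, with Sema3g added. No guidance gene differed between the Nes-Cre and Pax8+/Cre mutants (against 2.04%; 8 at an unadjusted p under 0.05 in limma) or between Wnt4+/CreGFP mutants and Pax8+/Cre mutants (against 0.26%; 4 at an unadjusted p under 0.05).

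**Figure D4:**
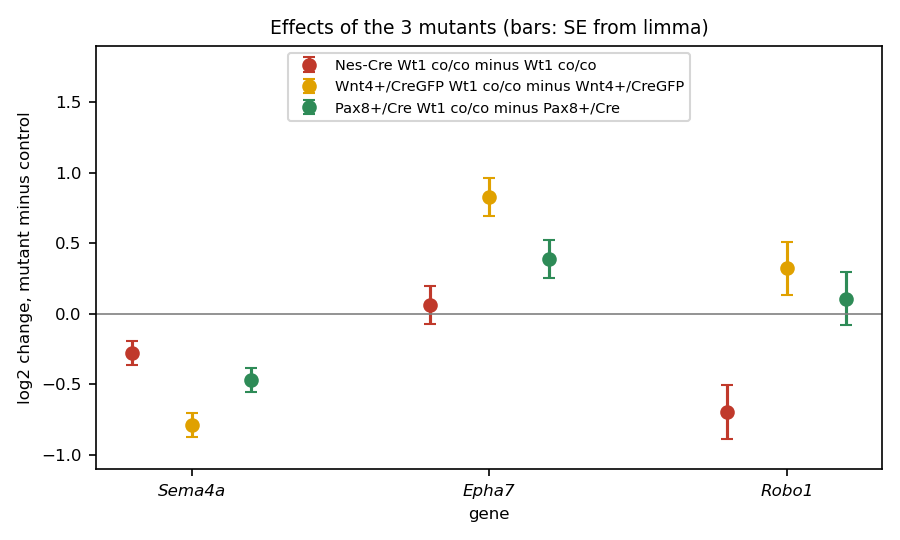
Log2 change, mutant minus control, of Sema4a, Epha7 and Robo1 in the 3 mutants, with the SE from limma as bars. For Epha7 and Robo1 the Nes-Cre mutant point lies lowest of the 3, and for Sema4a it lies nearest to 0.

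Leaving out Nes-Cre mutant replicate 1 changed which guidance genes were called in that mutant. The genes that rose were then Efna4, Plxna2, Sema3f, Sema4f and Unc5a (5 genes, against 13.6% of all genes), and those that fell were Robo1, Sema4d, Sema4g and Sema5a (4 genes, against 13.3%). Plxna2, Unc5a and the 4 that fell were called with and without the replicate, whereas Sema3g, Sema4a and Epha2 were called only with it. Since all groups share the spread estimate, the other comparisons moved as well: 10 rose and 3 fell in the Wnt4+/CreGFP mutant (against 14.1% and 12.7%), with Efna5, Epha3 and Ephb2 added, and 1, Epha7, rose and 2 fell in the Pax8+/Cre mutant (against 5.33% and 6.44%).

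**Figure D5:**
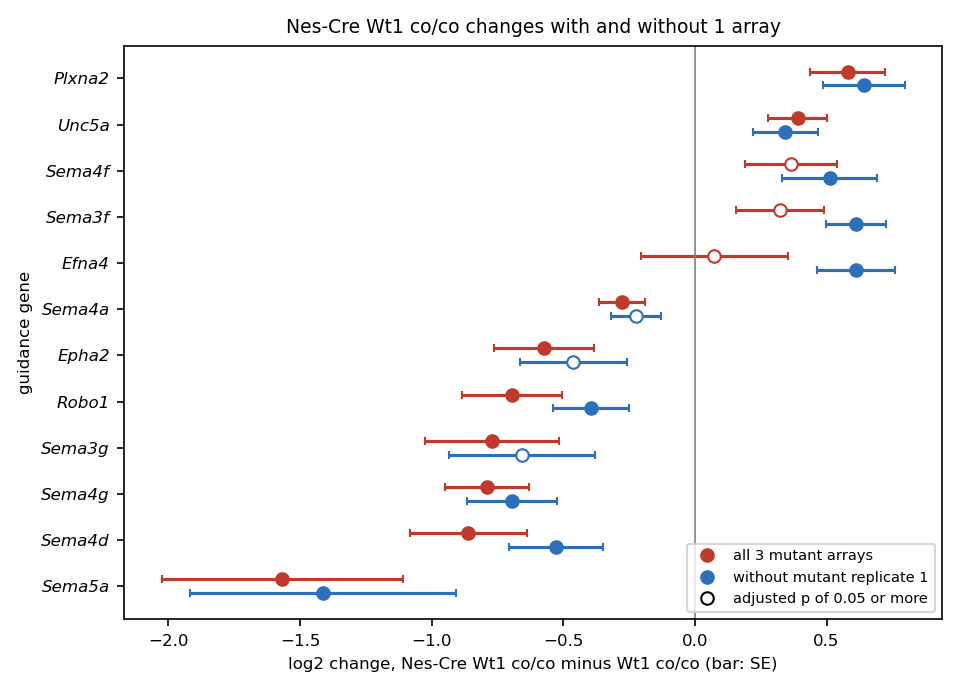
Log2 change in Nes-Cre mutant kidneys, relative to Wt1 co/co kidneys, of the guidance genes called with all 3 mutant arrays or without mutant replicate 1, with the SE from limma as bars. Red points use all arrays, blue points leave out replicate 1, and filled points have an adjusted p under 0.05. Sema3f, Sema4f and Efna4 are filled only without replicate 1.

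Other guidance ligands and receptors outside these families changed in few cases. Of 38 listed genes 27 were tested. In Nes-Cre mutant kidneys 1 rose and 4 fell (3.7% and 14.8%, against 11.7% and 14.1% of all genes), with a median log2 change of −0.28. Pgf, a growth factor of the Vegf family, rose by 1.13 ± 0.16 (SE, n = 3 each; limma adjusted p = 7.44e-05), and Flrt1, an Unc5-binding adhesion protein, fell by 1.26 ± 0.26 (adjusted p = 0.00192). Vegfa, the main angiogenic factor of podocytes and tubules, fell by 0.51 ± 0.18 in that mutant (adjusted p = 0.0384) and by 0.63 ± 0.18 in the Pax8+/Cre mutant (adjusted p = 0.0453), where it was the only gene of the list to pass. In the Wnt4+/CreGFP mutant 3 rose (11.1%, against 7.04%) and none fell (median 0.11): Rgma, a ligand of neogenin, by 0.78, Flrt2, a ligand of Unc5 receptors, by 0.62 and Pgf by 0.53. Without Nes-Cre mutant replicate 1, 3 rose and 1 fell in the Nes-Cre mutant (against 13.6% and 13.3% of all genes), and Vegfa was not among them. Flrt2 then also rose in the Pax8+/Cre mutant, and Cxcl12 fell and Lrig3 rose in the Wnt4+/CreGFP mutant.

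Of 73 listed genes that act inside the cell below these receptors, 43 were tested. In Nes-Cre mutant kidneys 11 rose and 3 fell (25.6% and 6.98%, against 11.7% and 14.1% of all genes), with a median log2 change of 0.18. The largest rises among those called were Rnd3, a small GTPase, by 1.27 ± 0.16 (SE, n = 3 each; limma adjusted p = 3.42e-05), Rras, a GTPase on which plexins act, by 1.21 ± 0.41 (adjusted p = 0.0368), and Dpysl3, of the collapsin response mediator family, by 0.94 ± 0.28 (adjusted p = 0.0199). Ngef, an exchange factor below EphA receptors, fell by 0.98 ± 0.23 (adjusted p = 0.00509). Wnt4+/CreGFP mutant kidneys had 5 rises (11.6%, against 7.04%) and no fall (median 0.13), among them Dpysl5 by 0.77 and the kinase Src by 0.57. In the Pax8+/Cre mutant Dpysl5 alone rose (2.33%, against 1.76%), by 0.58 (median 0.17). Without Nes-Cre mutant replicate 1 there were 10 rises and 5 falls in the Nes-Cre mutant (against 13.6% and 13.3% of all genes). Rnd3 and Dpysl3 but not Rras were among these rises. The Wnt4+/CreGFP mutant then had 10 rises and 1 fall, of Chn2 (against 14.1% and 12.7%). The Pax8+/Cre mutant had 2 rises, of Dpysl5 and Vav3 (against 5.33%). No gene of either list was called between Nes-Cre and wild-type kidneys. Macrophage markers averaged 7.47 to 8.21 in Nes-Cre mutant kidneys and 6.73 to 6.84 in Wt1 co/co kidneys, with 7 of 8 higher, and the part of these cells in either list was not tested.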

How the data were processed

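Total RNA of E18.5 kidneys, 3 embryos in each of 8 groups per the labels, was hybridised by the authors to Illumina MouseRef-8 v2 bead arrays. The deposited intensities are linear bead signals, 1 value per gene symbol, with neither background subtraction nor normalization. The deposited detection p-values set the signal of a gene against negative-control beads on the same array. The authors' ratio values set each array against the median of the 3 controls of its set and were used only as an alternative. Replicates 1 and 3 carry exchanged numbers between the intensities and the ratios in every group, and the numbers of the intensities are used. The sources used here state neither which arrays shared a chip nor the software settings.

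The background of each array was read from genes with detection p-values near 0.5 (its mean) and 0.16 (its SD) and removed with the normexp model of limma 3.58.1 in R 4.3.3. An offset of 16 was added before quantile normalization and log2. The neqc function served as an alternative, because it assumes that detection p falls steadily with intensity. The per-gene values do not follow that, and it took a background SD of 113 to 397 intensity units where the genes near background gave 3.98 to 17.5.

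Genes that passed a detection p under 0.01 on 3 or more of the 24 arrays (10371 of 17951, 57.8%) were tested in 1 limma fit with a mean per group and moderated variances (residual degrees of freedom 16, prior 2.98). Benjamini-Hochberg adjustment ran over all genes tested, separately for each comparison, and genes were called at an adjusted p under 0.05. Every adjusted p of the text is from limma, errors of changes are standard errors, and 3 arrays a group limit the precision. A lack of overlap between 3 mutant and 3 control arrays describes the values and is not a test. Its share over all genes is not given here. The fit was tested on simulated data. Where a fold bound is given, the gene was detected in no array of 1 group. The bound sets the mean of the other group against the higher of the gene's own level and the lowest detected level on each array. Plots were made with matplotlib 3.10.9 under Python 3.11.15. Upstream sequences are from RefSeq for build GRCm38.p6, and 39 of the 43 tested guidance genes matched.

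The guidance genes and all gene lists were chosen with earlier results of these data known. The genes named passed in at least 2 mutant comparisons or in a difference of effects, were among the 6 largest called changes each way without overlap in 1 mutant comparison, or have a known role in the kidney. Called genes of the other lists were named by size, up to 6 a comparison. Alternatives covered the background correction, the scaling, the ratio values, the detection filter, the variance model, array weights, the arrays in the fit, a replicate block, a fold of at least 1.5, other controls of the Nes-Cre mutant and each array left out in turn. Same-numbered replicates did not deviate together, so the numbers were not taken as pairs.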

Additional observations from a re-analysis of the deposited data

Results flagged for a closer look

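The mutant-minus-control changes of 3 guidance genes differed between Nes-Cre mutants and Wnt4+/CreGFP mutants by the limma test of the difference itself. The Wt1 co/co controls lack Cre and the Wnt4+/CreGFP controls lack floxed Wt1, so that driver, control and array set cannot be told apart. For Sema4a the Nes-Cre effect minus the Wnt4+/CreGFP effect was 0.51 ± 0.12 (SE; adjusted p = 0.0341), with effects of −0.28 in the Nes-Cre mutant and −0.79 in the Wnt4+/CreGFP mutant. For Epha7 it was −0.76 ± 0.19 (adjusted p = 0.0374), with effects of 0.06 in the Nes-Cre mutant and 0.83 in the Wnt4+/CreGFP mutant. For Robo1 it was −1.02 ± 0.27 (adjusted p = 0.0483), with effects of −0.70 in the Nes-Cre mutant and 0.32 in the Wnt4+/CreGFP mutant. Only the Nes-Cre effect on Robo1 and only the Wnt4+/CreGFP effect on Epha7 passed the test on their own. With each array left out in turn, the difference lost its call in 18 fits for Robo1, 9 for Epha7 and 7 for Sema4a.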

How the results depend on the processing

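The guidance genes that changed in Wnt4+/CreGFP mutants or in Pax8+/Cre mutants kept their direction under every alternative, and Sema3g was called lower in both of these mutants under each alternative and each left-out array, whereas Sema3a, Sema3f, Sema4b, Plxna2 and Unc5c in the Wnt4+/CreGFP mutant and Sema4a in the Pax8+/Cre mutant were not called with the ratio values. The Nes-Cre calls moved most. In the Nes-Cre mutant 2 genes rose with all arrays, 1 with neqc, without background correction, with detection in at least 12 arrays or with array sets cancelled, 7 with scaling to the 75th percentile, 5 with array weights, 4 against Nes-Cre kidneys, and 0 with the ratio values, with only the arrays compared or with a fold of at least 1.5. Against Nes-Cre kidneys the signs of Plxna2 (a log2 change of −0.0017) and Unc5a (−0.0931) turned, so that the 4 that rose there were other genes. Of the 7 that fell, 4 were left with scaling to the 75th percentile and 0 with only the arrays compared or with array sets cancelled. The Wnt4+/CreGFP rises numbered 2 with the ratio values (against 1.06% of all genes) and 12 with array weights. The share of all genes called moved between settings too. Nes-Cre mutant rises covered 11.7% of all genes in the main fit, 21.6% with scaling to the 75th percentile and 2.46% with the ratio values. A count alone therefore does not show a change particular to the guidance genes. The Pax8+/Cre rises numbered 1 with neqc, the ratio values or only the arrays compared and 5 with array weights, and its falls 5 with array weights and 1 with a fold of at least 1.5. Differences between the Nes-Cre and Wnt4+/CreGFP effects numbered 1 with scaling to the 75th percentile and 0 with the ratio values or only the arrays compared. Those between the Nes-Cre and Pax8+/Cre effects numbered 2 with scaling to the 75th percentile, 6 with the ratio values and 4 with array weights, and those between the Wnt4+/CreGFP and Pax8+/Cre effects 3 with array weights and 1 with only the arrays compared. Array weights were estimated without convergence. Fits of only the arrays compared have fewer degrees of freedom and also take the spread from those arrays alone. The cause of these moves was not tested for any setting.

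With each array left out in turn, 1 to 5 genes rose and 2 to 7 fell in the Nes-Cre mutant, with 2 left without Wt1 co/co replicate 1, 3 without Wt1 co/co replicate 3 and 4 without mutant replicate 1. In the Wnt4+/CreGFP mutant 5 to 10 rose and 2 to 3 fell, in the Pax8+/Cre mutant 0 to 1 rose and 2 fell each time, and between Nes-Cre and wild-type kidneys 0 to 1 rose and 0 fell. The Nes-Cre and Wnt4+/CreGFP effects differed in 0 to 4 genes, the Nes-Cre and Pax8+/Cre effects in 0 to 2 and the Wnt4+/CreGFP and Pax8+/Cre effects in 0 to 1. Same-numbered replicates correlated at −0.20 to 0.07 in their deviations, so the numbers do not pair them. With the replicate number as a block, 2 rose and 7 fell in the Nes-Cre mutant, 7 and 3 in the Wnt4+/CreGFP mutant and 0 and 2 in the Pax8+/Cre mutant, 0 and 0 differed between Nes-Cre and wild-type kidneys, and the Nes-Cre and Wnt4+/CreGFP effects differed in 2 genes. Of the 43 tested guidance genes, 10 were detected in 11 arrays or fewer, and signal over background limits their changes.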
